A study of Homo sapiens with 8 samples.

Results

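Oxidative phosphorylation genes, the genes for the respiratory chain complexes and ATP synthase, were taken from the deposited gene table of H9, a widely used line of human embryonic stem cells. They were chosen by symbol: rows that begin with NDUF, UQCR, ATP5 or MT-, with COX followed by a digit, or that are SDHA to SDHD, without rows described as pseudogenes. Of 15811 genes, 119 rows matched, 2 pseudogenes were left out and 117 members remained, of which 101 are nuclear and 16 are mitochondrially encoded. Total RNA was sequenced from 4 libraries of an EXT1-/- H9 line made with CRISPR/Cas9 and from 4 libraries of wild-type (WT) H9 cells. EXT1 encodes a glycosyltransferase that builds heparan sulfate chains. Both groups had been held for 28 h in RPMI-1640 medium with 6 µM CHIR-99021, a GSK3 inhibitor that drives stem cells towards mesendoderm, and no library of cells before induction was analysed here. The genotype rests on a single EXT1-/- line. Nothing in the labels says that the replicates came from different cultures, and p-values then cover only library-to-library spread, part or all of which may be technical.

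The respiratory chain passes electrons from NADH and succinate to oxygen through complexes I to IV and pumps protons across the inner mitochondrial membrane, and ATP synthase uses the gradient to make ATP. Complexes I, III and IV and ATP synthase are built from subunits of both genomes, whereas every subunit of complex II, succinate dehydrogenase, is nuclear. The mitochondrial genome is transcribed as long precursors that are cut into mRNAs, rRNAs and tRNAs, so neighbouring genes share their transcription. Pluripotent stem cells rely strongly on glycolysis, and respiration is known to increase as they differentiate.

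A minority of nuclear members held promoter letters known for this pathway. NRF1, a factor of respiratory genes (nuclear respiratory factor), binds a palindrome that was searched for as GCGCATGCG on both strands, so a match on the other strand reads CGCATGCGC. Of the 82 nuclear members with a RefSeq promoter window (GRCh38.p14, 300 bases), 14 (17.1%) held it, against 638 of 27305 genes (2.34%) with windows of the same length. Those 27305 are all genes with such windows, not matched to the members in expression or base composition. The windows of NDUFS6 and NDUFS7, which were higher in EXT1-/- cells, and of NDUFB4, which was lower, are shown because the same letters stood before members that moved in opposite directions. Each line gives the 250 bases before the RefSeq start, with the NRF1 motif in capitals.
NDUFS6 (chr5:1801157-1801406, plus strand): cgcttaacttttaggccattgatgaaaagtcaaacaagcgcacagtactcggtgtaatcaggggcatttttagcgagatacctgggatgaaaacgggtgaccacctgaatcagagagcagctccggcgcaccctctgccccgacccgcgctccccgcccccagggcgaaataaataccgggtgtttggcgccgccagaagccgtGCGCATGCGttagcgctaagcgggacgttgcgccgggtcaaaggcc
NDUFS7 (chr19:1383657-1383906, plus strand): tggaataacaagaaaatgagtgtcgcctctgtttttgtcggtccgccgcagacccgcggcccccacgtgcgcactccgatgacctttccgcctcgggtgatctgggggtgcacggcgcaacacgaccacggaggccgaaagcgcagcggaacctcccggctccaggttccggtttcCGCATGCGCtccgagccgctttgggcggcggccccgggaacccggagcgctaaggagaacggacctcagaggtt
NDUFB4 (chr3:120596086-120596335, plus strand): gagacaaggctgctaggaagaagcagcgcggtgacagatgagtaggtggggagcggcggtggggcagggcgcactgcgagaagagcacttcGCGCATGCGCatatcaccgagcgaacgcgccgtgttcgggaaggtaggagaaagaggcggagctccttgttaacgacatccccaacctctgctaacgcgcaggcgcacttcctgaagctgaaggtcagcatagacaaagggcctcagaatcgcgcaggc
The motif began 46 bases before the start in NDUFS6 and 74 bases before it in NDUFS7. In NDUFB4 the matches on the 2 strands overlap. Among members past the threshold used below, 2 of 6 that were higher and 3 of 8 that were lower held it. The letters CCGGAAGT on either strand, bound by GABPA, were found in 15 of the 82 (18.3%), against 4.95% of the 27305 genes. They stood in 0 of 6 higher and in 1 of 8 lower members. A match is a description of the letters and not a site of binding.

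Libraries were compared on the deposited normalised read counts, which summed to 37737058 to 40017763 per library. EXT1 itself had 890, 894, 915 and 980 counts in EXT1-/- replicates 1 to 4, against 1776, 1499, 1464 and 1508 in WT replicates 1 to 4 (log2 fold change -0.76), so its transcript was lower but still present. Libraries fell into a set of 3 with a high mitochondrial share (EXT1-/- replicates 1 and 4, and WT replicate 1) and a set of 5 with a low share, a split that the labels do not name. Results are therefore given over all 8 libraries and also in the 5 low libraries (2 EXT1-/- and 3 WT). Markers of the labelled cells were present. All 5 pluripotency markers were in the table, and they summed to 115592 to 128283 counts in EXT1-/- and 150125 to 153099 in WT libraries. All 5 mesendoderm markers were there too, at 11256 to 17417 counts in EXT1-/- and 31086 to 35294 in WT libraries. Markers of other fates also differed: the 3 mesoderm markers in the table (of 4) summed to 1612 to 1933 against 10995 to 11917 counts, the 2 neuroectoderm markers (of 4) to 2590 to 4541 against 117 to 167, and the 3 endoderm markers (of 4) to 1194 to 1788 against 385 to 448, EXT1-/- before WT in each. These sums hold members that went the other way past the threshold: SOX2 was higher in EXT1-/- cells among the pluripotency markers, HAND1 higher among the mesoderm markers, and FOXA2 lower among the endoderm markers (means of 34.5 and 105.5 counts, EXT1-/- before WT; log2 fold change -1.62, adjusted p 0.00105, limma). HAND1 was listed at 0 in 2 WT libraries. The part of such a shift in the results below was not tested.

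Mitochondrially encoded transcripts took a large and uneven part of the libraries. The 16 members made up 9.18, 5.32, 5.40 and 9.38% of all counts in EXT1-/- replicates 1 to 4, against 10.67, 5.43, 5.30 and 5.32% in WT replicates 1 to 4. The groups overlapped, and the spread within each group, 7.32 ± 2.26% in EXT1-/- and 6.68 ± 2.66% in WT (SD, n = 4 each), was larger than the difference between them. The 101 nuclear members took 1.04, 1.10, 1.14 and 0.99% in EXT1-/- libraries, against 0.97, 1.14, 1.20 and 1.20% in WT libraries. Their share was lowest in the 3 libraries whose mitochondrial share was highest. For each nuclear count there were 8.80, 4.81, 4.75 and 9.45 mitochondrially encoded counts in EXT1-/- libraries and 10.98, 4.74, 4.44 and 4.45 in WT libraries. In the 5 low libraries this ratio was higher in both EXT1-/- libraries than in any WT library, by a small margin over WT replicate 2.

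**Figure D1:**
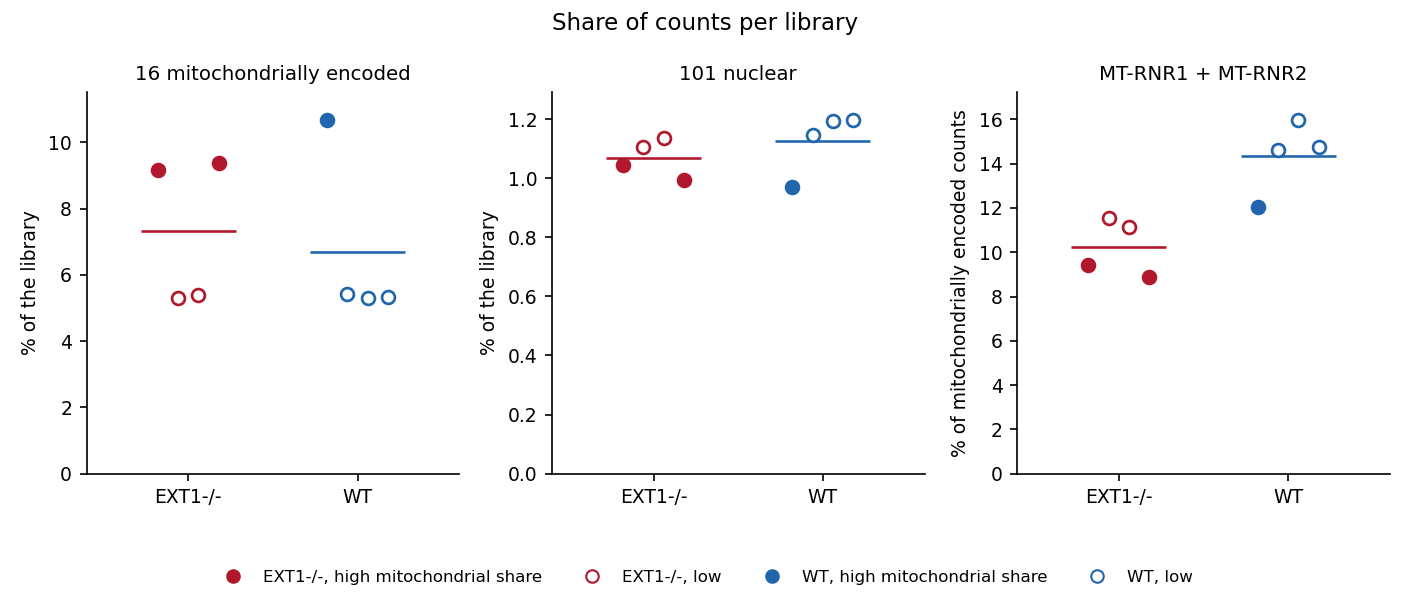
Share of counts in each library (points) with the group mean (line), EXT1-/- left and WT right; filled points are the 3 libraries of high mitochondrial share. The left and middle panels give the percent of the library taken by the 16 mitochondrially encoded and the 101 nuclear members, where the groups overlap, and the right panel gives the rRNA percent of mitochondrially encoded counts, 8.88 to 11.53% in EXT1-/- and 12.03 to 15.96% in WT libraries.

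Levels per length of the 2 genomes were far apart. The 13 mitochondrial protein genes are called mRNAs here, counted by gene and not by separate transcript. Normalised counts per kilobase of exon ran over the 13 mitochondrial mRNAs from 62390 (MT-ND6) to 576100 (MT-CO3) in EXT1-/- cells, with a median of 129200, and in WT cells from 54400 to 523900 with a median of 100700. The 78 nuclear subunit genes of complexes I to V had medians of 1466 in EXT1-/- and 1507 in WT cells, on the same scale. The highest of them was NDUFS5, a small complex I subunit, at 13890 in EXT1-/- and 14680 in WT cells, and the lowest was NDUFA4L2 at 16.3 and 31.98. On this scale the lowest mitochondrial mRNA therefore lay above the highest nuclear subunit in both groups. The length is the union of a gene's annotated exons, 548 bases for NDUFS5 and 10908 for ATP5A1. It can exceed the length of the mRNA present, so nuclear levels may be understated and their ranks are uncertain.

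No mitochondrially encoded member passed the test of EXT1-/- against WT over all 8 libraries. Differences were tested with limma on log2(count + 1) across all 15811 genes, with Benjamini-Hochberg adjustment and a threshold of 0.05, and fold changes are on that log2 scale. Of all genes, 32.0% were past the threshold (15.2% higher and 16.8% lower), against 0 of the 16, of which 0 had an unadjusted p under 0.05. All 13 mRNAs had a higher mean in EXT1-/- cells (median log2 fold change 0.23) and both rRNAs a lower one. In the 5 low libraries 9 of the 13 mRNAs were higher and 4 lower, MT-CO1, MT-CO3, MT-ND3 and MT-ND4, with a median of 0.03. The median over the 16 members, 0.21, was 0.03 in the low libraries and ran from 0.03 to 0.53 when single libraries were left out. The authors' deposited table gives 1 of the 16 an FDR under 0.05, MT-TA, the alanine tRNA gene, at 0.0156. Its counts were 138, 21, 47 and 150 in EXT1-/- and 25, 15, 58 and 13 in WT libraries, and the limma adjusted p was 0.129.

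MT-CYB encodes cytochrome b, the single mitochondrially encoded subunit of complex III (chromosome M, 14747 to 15887, plus strand, GENCODE 29 on GRCh38). It had 142839, 76878, 80396 and 156805 counts in EXT1-/- replicates 1 to 4, against 131066, 62795, 56828 and 63480 in WT replicates 1 to 4. The high libraries stood apart in both groups, and within each set of libraries every EXT1-/- value was above every WT value. The log2 fold change was 0.56 ± 0.32 (SE, adjusted p 0.226, limma) over 8 libraries and 0.37 in the low libraries, where no test is given because the members' own level set the libraries apart. MT-ND1, a core subunit of the complex I membrane arm, showed the same order, with 106510, 52205, 54975 and 119760 counts in EXT1-/- and 101012, 42892, 39403 and 42492 in WT libraries (log2 fold change 0.58 ± 0.37, adjusted p 0.268; 0.37 in the low libraries). The high set holds a single WT library. How many of all genes show such an order within the sets is not given, here or below. Without WT replicate 1, the WT library of high share, MT-CYB (0.83, adjusted p 0.0363) and MT-ND1 (0.90, adjusted p 0.0439) passed. That fit sets EXT1-/- replicates 1 and 4, of high share, against WT libraries of low share only. Genotype is therefore mixed with library set in it. Over 16 tested alternatives the adjusted p reached 0.453 for MT-CYB and 0.520 for MT-ND1.

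The rRNAs of the mitochondrial ribosome lay on the other side. MT-RNR2, the large-subunit rRNA (chromosome M, 1671 to 3229), had 311710, 208597, 206583 and 302584 counts in EXT1-/- libraries, against 467613, 279138, 295672 and 275120 in WT libraries (log2 fold change -0.35 ± 0.21, adjusted p 0.239, limma). The low EXT1-/- libraries were below all WT libraries, while both high EXT1-/- libraries were above the 3 low WT libraries. MT-RNR1, the small-subunit rRNA, had a log2 fold change of -0.28 ± 0.20 (adjusted p 0.313), and -0.38 in the low libraries, against -0.45 for MT-RNR2 there. As a part of the mitochondrially encoded counts, which does not depend on the scaling between libraries, rRNA was 9.44, 11.53, 11.12 and 8.88% in EXT1-/- and 12.03, 14.62, 15.96 and 14.76% in WT libraries. The groups did not overlap in this share, nor within either set of libraries. In counts, which are another measure, 33.5% of all genes had groups that did not overlap, against 0 of the 16 mitochondrially encoded members. The counts of MT-RNR2 per count of MT-ND1, its neighbour on the same strand, were 2.93, 4.00, 3.76 and 2.53 in EXT1-/- and 4.63, 6.51, 7.50 and 6.47 in WT libraries. The counts of MT-RNR1 per count of MT-RNR2 were alike, at 0.101 to 0.109 in EXT1-/- and 0.0919 to 0.107 in WT libraries. These shares were read after the values were seen and carry no test, and libraries of a total RNA kit hold the rRNA left after any removal step.

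Within the mitochondrial mRNA the makeup differed by gene. MT-CYB took 4.32, 4.33, 4.41 and 4.59% of mitochondrial mRNA counts in EXT1-/- libraries, against 3.49, 3.53, 3.30 and 3.61% in WT libraries, a ratio of 1.27 between the group means. MT-ND1 took 2.94 to 3.50% in EXT1-/- and 2.29 to 2.69% in WT libraries, a ratio of 1.29. MT-ND2, which lies next to it and encodes another complex I membrane subunit, took 5.01 to 5.49% and 4.43 to 4.81%, EXT1-/- before WT. These 3 of the 13 shares did not overlap between the groups. In counts, which are another measure, 33.5% of all genes had groups that did not overlap, against 0 of the 16 mitochondrially encoded members. The 13 shares are parts of 1 total and are not independent of each other. The largest mRNA shares were those of MT-CO1, at 24.16 to 28.35% in EXT1-/- and 26.55 to 30.53% in WT libraries, and MT-CO3, at 17.27 to 17.79% in EXT1-/- and 17.69 to 18.70% in WT libraries. MT-CO1 and MT-CO3 encode catalytic-core subunits of cytochrome c oxidase, and their shares overlapped over all 8 libraries. Within each library set, both shares were lower in every EXT1-/- library than in any WT library. The shares of MT-CO2, MT-ATP6 and MT-ATP8 were higher in the EXT1-/- libraries of each set, and that of MT-ND4 was lower. Those of MT-ND3, MT-ND4L, MT-ND5 and MT-ND6 kept no single order across both sets. Per count of MT-CO1 there were 0.153 to 0.190 counts of MT-CYB in EXT1-/- libraries and 0.108 to 0.132 in WT libraries.

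**Figure D2:**
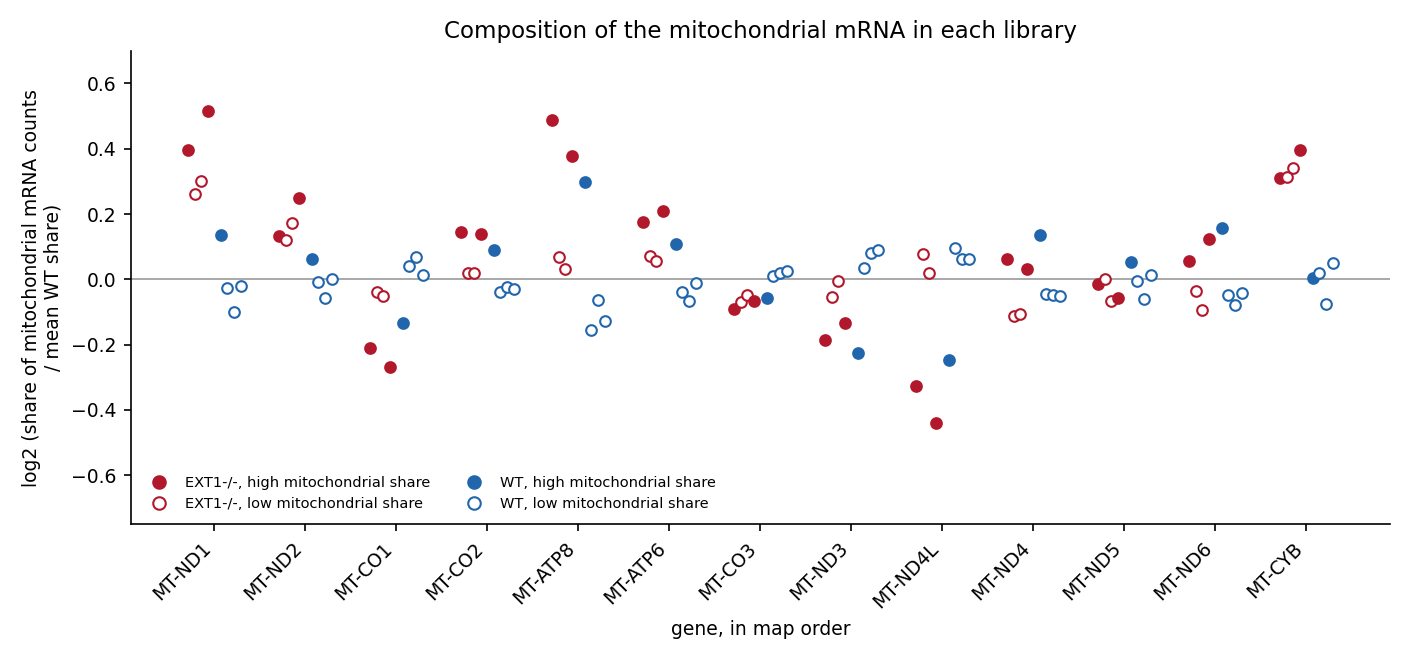
Share of each of the 13 mitochondrial mRNAs among mitochondrial mRNA counts, as log2 of the share over the mean WT share, for each library (points; EXT1-/- left of WT at each gene; filled points are libraries of high mitochondrial share). Genes stand in map order. MT-CYB, MT-ND1 and MT-ND2 had higher shares in all 4 EXT1-/- libraries than in any WT library. The shares of the other mRNAs overlapped between the groups. Those of MT-CO1, MT-CO2, MT-ATP8, MT-ATP6, MT-ND3, MT-ND4L, MT-ND4 and MT-ND6 followed the library set, with high and low libraries fully apart. In counts, which are another measure, 33.5% of all genes had groups that did not overlap, against 0 of the 16 mitochondrially encoded members.

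All 13 mitochondrial mRNAs were higher in the 3 high libraries than in the 5 low ones, by 0.62 to 1.40 on the log2 scale. This was largely fixed in advance, because the sets were read from the summed share that these mRNAs dominate. The mRNAs other than MT-CYB and MT-ND1 differed less between the genotypes than those 2. MT-CO1 had 831069, 503333, 512006 and 826195 counts in EXT1-/- and 996066, 533471, 525314 and 516520 in WT libraries, with a log2 fold change of 0.07 ± 0.26 (adjusted p 0.854, limma) and -0.05 in the low libraries. WT replicate 1 was the highest of all. For MT-CO2, MT-CO3, MT-ND2 to MT-ND6, MT-ND4L, MT-ATP6 and MT-ATP8, fold changes were 0.05 to 0.47 over 8 libraries with adjusted p from 0.424 to 0.867, and -0.06 to 0.20 in the low libraries. MT-ND6 encodes a complex I subunit and is the only mRNA here on the minus strand. It had 0.222 to 0.258 counts per count of MT-ND5, its neighbour on the plus strand, in EXT1-/- and 0.219 to 0.245 in WT libraries, so its level relative to that neighbour overlapped between the groups.

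Several of these counts share sequence. MT-ATP8 and MT-ATP6, both ATP synthase subunits, overlap by 46 bases that serve as coding sequence for both, so reads inside them cannot be told apart. The stretch is shown because MT-ATP8 is a short gene of which this is a sizeable part. MT-ATP8 took 1.40 to 1.92% of mitochondrial mRNA counts in EXT1-/- and 1.23 to 1.68% in WT libraries. The capitals mark the start codon of MT-ATP6.
MT-ATP8 and MT-ATP6 (chrM:8527-8572, plus strand, GRCh38): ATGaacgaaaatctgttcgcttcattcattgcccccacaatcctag
MT-ND4L and MT-ND4 overlap by 7 bases. Copies of mitochondrial genes in the nuclear genome also took reads: MTATP6P1 on chromosome 1, a pseudogene outside the rule, had 26305 to 66885 counts in EXT1-/- and 23237 to 67481 in WT libraries, which is 15.9 to 19.4% of the MT-ATP6 count of the same library, and MTND2P28 3.39 to 4.37% of MT-ND2. Levels of MT-ATP6, MT-ATP8 and MT-ND2 are therefore uncertain.

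Most nuclear members did not pass the test, and those that did differed by small amounts. Over 8 libraries 6 of 101 were higher and 9 lower in EXT1-/- cells (14.9%), against 32.0% of all genes, and 27 had an unadjusted p under 0.05. Their median log2 fold change was -0.04, against 0.01 over all genes, and 0 of the 101 differed by 2-fold or more. EXT1-/- and WT values were fully apart for 4 members that were higher and 7 that were lower, against 16.3 and 17.2% of all genes. In the 5 low libraries 4 were higher and 31 lower (34.7%), against 21.1 and 24.3% of all genes (45.4% together), with a median of -0.08. With the library set as a term 13 were higher and 25 lower, against 26.2 and 25.6% of all genes (51.8% together). In bulk RNA, fewer cells of a type and less RNA per cell cannot be told apart. The count of 15 was 24 without WT replicate 1, 7 without EXT1-/- replicate 4 or WT replicate 2, and 5 without WT replicate 4. The fit that gave 24 holds no WT library of high share. The authors' deposited table has 7 higher and 7 lower at an FDR of 0.05 (26.2% of all genes), 8 of which are among the 15. In it NDUFB8, UQCRC2, ATP5C1, NDUFA6, NDUFA6-AS1, NDUFAF7 and COX7A2L, all among the 15, had FDRs of 0.103 to 0.27. NDUFA4L2, not among the 15, had an FDR of 0.0268 there.

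**Figure D3:**
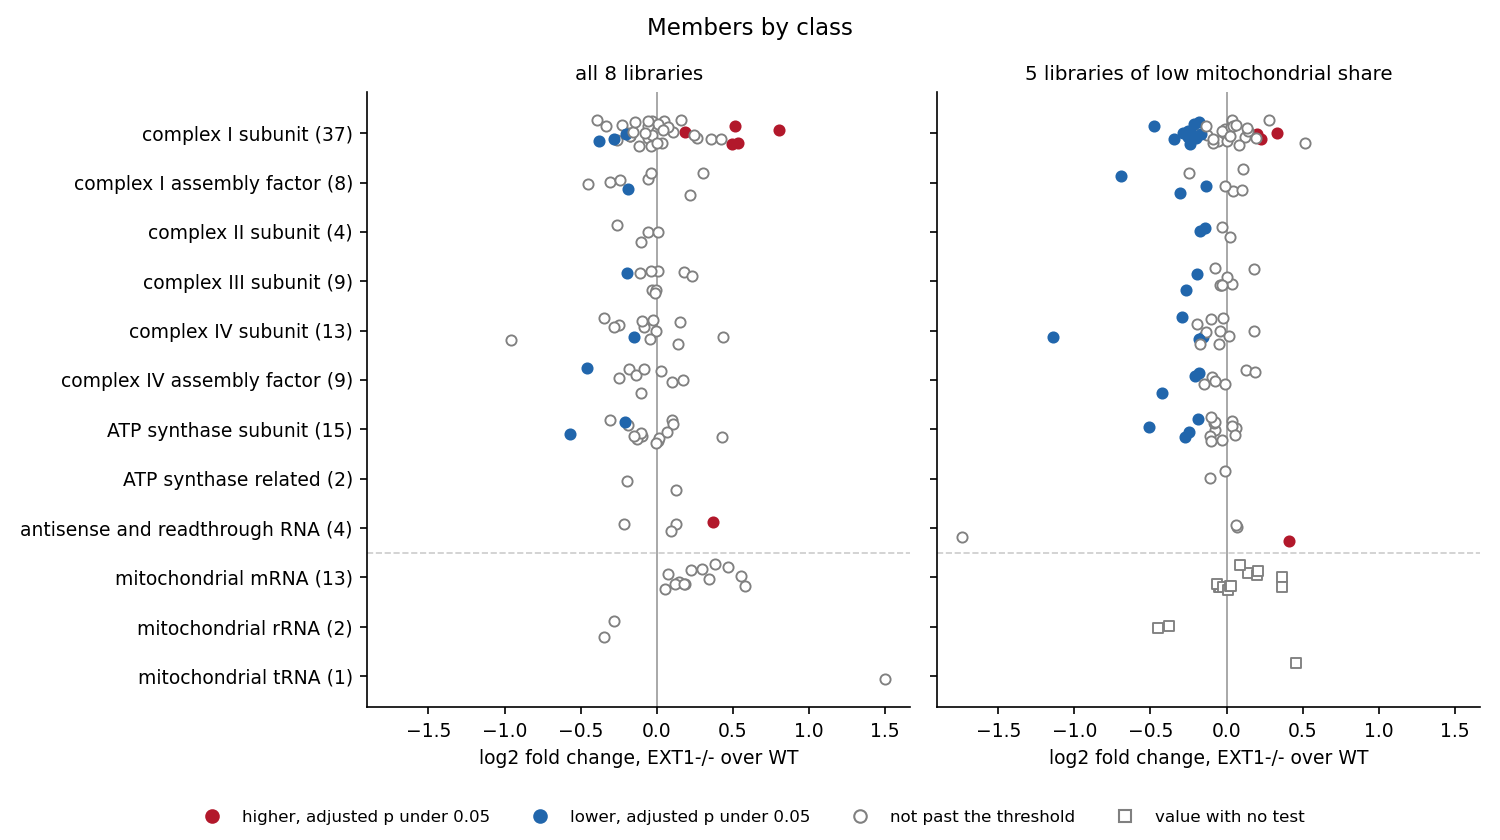
log2 fold change of EXT1-/- over WT for each member (points) by class, with the number of members in brackets, over all 8 libraries (left) and in the 5 libraries of low mitochondrial share (right); filled points had an adjusted p under 0.05 (limma), and squares are values with no test. Of 101 nuclear members 96 lie within 0.5 of 0 in either panel, NDUFA4L2 and NDUFC2-KCTD14 lie below -1 on the right, and of those past the threshold 6 were higher and 9 lower on the left and 4 higher and 31 lower on the right.

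In complex I, the NADH dehydrogenase and the largest complex, 5 of 37 nuclear subunits were higher and 3 lower (21.6%, against 32.0% of all genes), and of 8 assembly factors 0 were higher and 1 lower. The members that rose included core subunits of the arm that leads electrons to ubiquinone. NDUFS7, which carries the last iron-sulfur cluster before ubiquinone (chromosome 19, 1383527 to 1395589, plus strand, GRCh38), had 1513, 1266, 1137 and 1957 counts in EXT1-/- replicates 1 to 4, against 768, 823, 1167 and 614 in WT replicates 1 to 4. The groups overlapped, since WT replicate 3 was above EXT1-/- replicate 3. The log2 fold change was 0.81 ± 0.22 (SE, adjusted p 0.0209, limma), the highest among nuclear members, and 0.52 (adjusted p 0.0962) in the low libraries, and the call was lost without EXT1-/- replicate 1, WT replicate 2 or WT replicate 4. NDUFS8, which carries the neighbouring iron-sulfur clusters, had 2273, 1994, 1789 and 2791 counts in EXT1-/- and 1433, 1534, 1886 and 1295 in WT libraries (0.52 ± 0.15, adjusted p 0.0316; 0.28 in the low libraries, adjusted p 0.132). Its groups overlapped too, and the call was lost without EXT1-/- replicate 1 or 4 or WT replicate 1, 2 or 4.

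NDUFS6, a zinc-binding accessory subunit needed for the assembly of complex I (chromosome 5, 1801400 to 1816605, plus strand), had 2287, 2032, 1978 and 2687 counts in EXT1-/- libraries, against 1558, 1537, 1701 and 1543 in WT libraries. The groups did not overlap, and the means were 2246 ± 323 and 1585 ± 78.0 (SD, n = 4 each), EXT1-/- before WT. The log2 fold change was 0.49 ± 0.098 (adjusted p 0.00502, limma) and 0.33 in the low libraries (adjusted p 0.00233). NDUFA11, an accessory subunit of the membrane arm, had 5591, 3609, 3821 and 5612 counts in EXT1-/- and 2915, 3120, 3564 and 3037 in WT libraries (0.53 ± 0.16, adjusted p 0.0299). Its difference was 0.20 in the low libraries (adjusted p 0.0487), where it was smaller than over all 8, and the call was lost without EXT1-/- replicate 1 or 4 or WT replicate 1, 2 or 4.

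NDUFA6, an accessory subunit of the LYR family, is the fifth member of complex I that was higher and is named here after its values were seen, because it lies head to head with the long noncoding RNA gene NDUFA6-AS1, another member. NDUFA6 had 3488, 3084, 3234 and 3457 counts in EXT1-/- and 2961, 2768, 2922 and 3008 in WT libraries (log2 fold change 0.18 ± 0.058, adjusted p 0.0389, limma; 0.12 in the low libraries, adjusted p 0.0683). NDUFA6-AS1 had 111, 116, 125 and 125 counts in EXT1-/- and 97, 97, 86 and 88 in WT libraries (0.37 ± 0.099, adjusted p 0.0201; 0.41 in the low libraries, adjusted p 0.0373). Neither pair of groups overlapped. The genes share 25 bases at their starts (chromosome 22, 42090931 to 42090955), where counting by strand is not stated in the sources used here. The call of NDUFA6 was lost without EXT1-/- replicate 1, 3 or 4 or WT replicate 2, 3 or 4, and that of NDUFA6-AS1 without EXT1-/- replicate 3 or WT replicate 3 or 4.

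The complex I subunits that fell and are described here belong to the membrane arm. NDUFB4, an accessory subunit of the distal membrane arm (chromosome 3, 120596309 to 120602500, plus strand), had 4709, 3793, 4099 and 4269 counts in EXT1-/- and 5429, 5378, 5400 and 5716 in WT libraries. The groups did not overlap, with a log2 fold change of -0.38 ± 0.069 (adjusted p 0.00319, limma) and -0.48 in the low libraries. NDUFB8, of the same arm, had 3853, 3449, 3611 and 3663 counts in EXT1-/- and 3901, 4218, 4469 and 4211 in WT libraries (-0.20 ± 0.059, adjusted p 0.0285), a call lost without EXT1-/- replicate 2, 3 or 4 or WT replicate 2, 3 or 4. NDUFAF7, a methyltransferase that acts during the assembly of complex I, had 1116, 1123, 1167 and 1045 counts in EXT1-/- and 1298, 1274, 1238 and 1261 in WT libraries (-0.19 ± 0.054, adjusted p 0.0267). Its groups did not overlap, and its call was lost without EXT1-/- replicate 1, 2 or 4 or WT replicate 2, 3 or 4. The other 29 complex I subunits did not pass, and in the 5 low libraries 3 of 37 were higher and 13 lower (43.2%, against 45.4% of all genes).

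**Figure D4:**
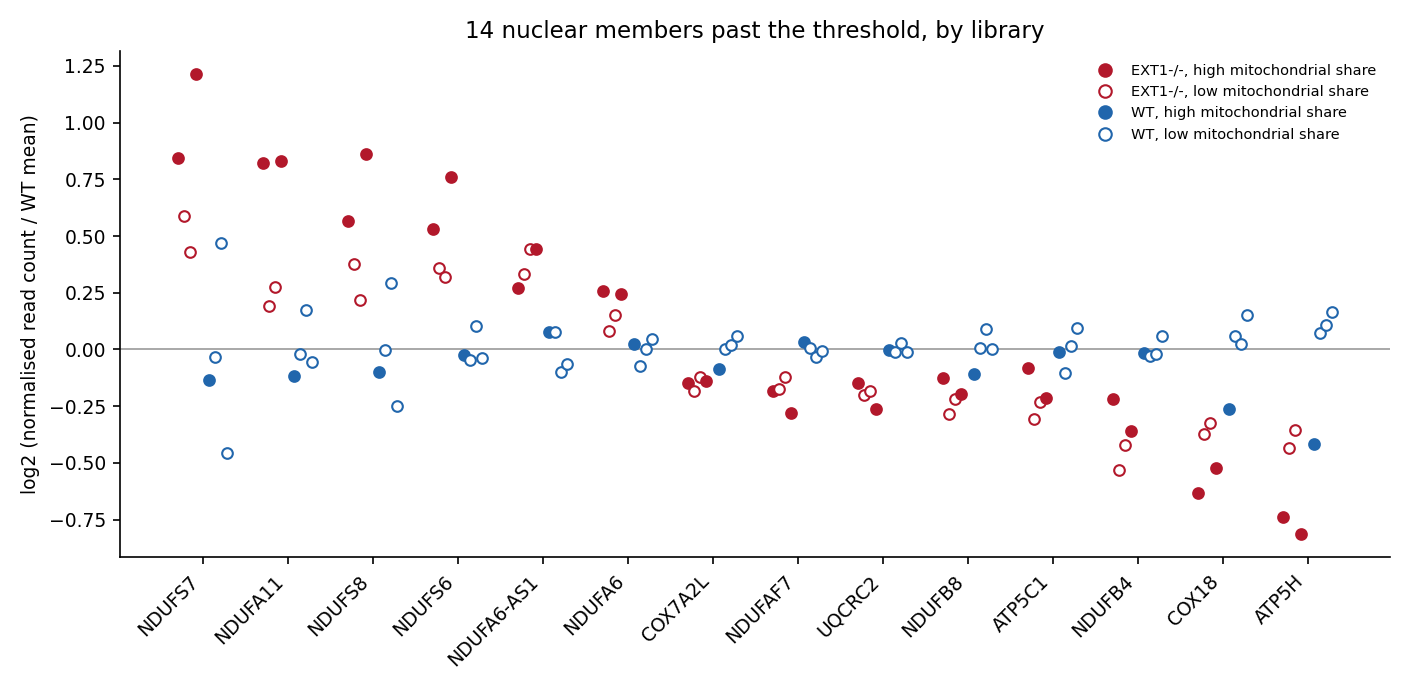
Normalised read count of 14 of the nuclear members past the threshold, as log2 of the count over the WT mean, for each library (points; EXT1-/- left of WT at each gene; filled points are libraries of high mitochondrial share). The groups do not overlap in 10 of the 14, which were picked by the test on these same values. Over all 101 nuclear members 11 did not overlap, against 33.5% of all genes. In NDUFS7, NDUFA11, NDUFS8, NDUFS6 and NDUFA6 the 2 filled EXT1-/- points lie above the open ones.

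Complex II showed no call among its 4 genes, against 32.0% of all genes. SDHA, the flavoprotein that oxidises succinate, had 3173, 2620, 2658 and 2950 counts in EXT1-/- and 3072, 2922, 2976 and 2851 in WT libraries (log2 fold change -0.06 ± 0.071, adjusted p 0.583, limma). SDHB, the iron-sulfur subunit, differed by 0.01 ± 0.063 (adjusted p 0.917). SDHC and SDHD, the membrane anchors, differed by -0.26 ± 0.12 (adjusted p 0.130) and -0.10 ± 0.17 (adjusted p 0.691). SDHC had 4924, 6198, 6385 and 4973 counts in EXT1-/- and 5544, 7263, 6849 and 7242 in WT libraries, so it was lower in the EXT1-/- libraries of each set. In the low libraries SDHA (-0.14, adjusted p 0.0189) and SDHC (-0.18, adjusted p 0.00832) passed, and SDHC also passed without WT replicate 1 (adjusted p 0.0306) and with the library set as a term. Counts of SDHC were lower in the high libraries of both groups, and the fit without WT replicate 1 holds no WT library of high share.

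Complex III had 1 call among 9 members (11.1%, against 32.0% of all genes). UQCRC2, a core protein of the complex on the matrix side (chromosome 16, 21952660 to 21983660, plus strand), had 8346, 8035, 8149 and 7712 counts in EXT1-/- libraries, against 9223, 9159, 9419 and 9160 in WT libraries. The groups did not overlap, and the log2 fold change was -0.20 ± 0.045 (adjusted p 0.00997, limma) and -0.19 in the low libraries. Its partner UQCRC1 and the Rieske iron-sulfur protein gene UQCRFS1 differed by -0.032 and -0.0043 on that scale, with adjusted p of 0.632 and 0.955. UQCRH and UQCRHL are near-identical copies, and reads may have been split between them. CYC1, cytochrome c1 of the same complex, lies outside the symbols chosen and differed by -0.11 ± 0.076 (adjusted p 0.287), while CYCS, cytochrome c, differed by -0.09 ± 0.25 (adjusted p 0.818). CYC1 passed without EXT1-/- replicate 4 (-0.19, adjusted p 0.0351) and in the low libraries (-0.21, adjusted p 0.00201), with the library set as a term (-0.15, adjusted p 0.038), and once the trend of each library with GC content was removed (-0.33, adjusted p 0.00288).

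Cytochrome c oxidase, complex IV, had 1 call among 13 subunit genes (7.69%) and 1 among 9 assembly factors (11.1%), against 32.0% of all genes. COX18, the insertase that places part of the COX2 protein in the inner membrane (chromosome 4, 73052362 to 73069755, minus strand), had 774, 928, 959 and 836 counts in EXT1-/- libraries, against 1000, 1250, 1220 and 1334 in WT libraries. The groups did not overlap, with means of 874 ± 84.8 and 1201 ± 142 (SD, n = 4 each; EXT1-/- before WT) and a log2 fold change of -0.45 ± 0.10 (adjusted p 0.0105, limma; -0.43 in the low libraries). COX7A2L, better known as a factor that joins complexes III and IV, had 4526, 4421, 4613 and 4558 counts in EXT1-/- and 4725, 5016, 5091 and 5228 in WT libraries. Its values did not overlap, but its log2 fold change was only -0.15 ± 0.049 (adjusted p 0.0496), and it missed the threshold when any library other than WT replicate 1 was left out.

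The isoform genes of complex IV were the ubiquitous ones. COX4I1, COX6A1, COX6B1, COX7A2, COX7B and COX8A had log2 fold changes of -0.10 to 0.16 with adjusted p from 0.337 to 0.878, and none passed. COX6B1 passed in the low libraries (-0.15, adjusted p 0.0432). NDUFA4, named after complex I but known as a complex IV subunit, had 9075, 11259, 12030 and 8659 counts in EXT1-/- and 9621, 13638, 14277 and 14943 in WT libraries. Within each set of libraries every EXT1-/- value was lower. Over all 8 the log2 fold change was -0.35 ± 0.16 (adjusted p 0.127, limma), against -0.29 (adjusted p 0.00194) in the low libraries. It also passed with the library set as a term, with the GC trend removed, and without WT replicate 1 (-0.49, adjusted p 0.0136). Counts of NDUFA4 were lower in the high libraries of both groups, and the fit without WT replicate 1 holds no WT library of high share. Its paralog NDUFA4L2, a gene known to be induced by hypoxia, had 71, 35, 29 and 48 counts in EXT1-/- and 142, 86, 72 and 59 in WT libraries. Its groups overlapped, since EXT1-/- replicate 1 was above WT replicate 4. The log2 fold change was -0.96 ± 0.34 (adjusted p 0.0581), which did not pass; it was -1.14 (adjusted p 0.00474) in the low libraries and -1.19 (adjusted p 0.0278) without EXT1-/- replicate 1, and over 17 alternatives the adjusted p lay between 0.000569 and 0.125.

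ATP synthase had 0 higher and 2 lower of 15 subunit genes (13.3%, against 32.0% of all genes). ATP5H, subunit d of the peripheral stalk (chromosome 17, 75038863 to 75046985, minus strand; ATP5PD in GENCODE 29), had 6138, 7588, 8016 and 5830 counts in EXT1-/- libraries, against 7676, 10790, 11045 and 11481 in WT libraries. WT replicate 1 lay inside the EXT1-/- range, and within each set every EXT1-/- value was lower. The log2 fold change was -0.57 ± 0.15 (adjusted p 0.0196, limma) and -0.51 (adjusted p 5.7e-05) in the low libraries, and the call was lost without EXT1-/- replicate 1 or 4 or WT replicate 2, 3 or 4. ATP5C1, the gamma subunit of the turning central stalk, had 8975, 7678, 8103 and 8204 counts in EXT1-/- and 9434, 8852, 9595 and 10148 in WT libraries (-0.21 ± 0.065, adjusted p 0.0382), a call lost without EXT1-/- replicate 2, 3 or 4 or WT replicate 3 or 4. The genes ATP5G1, ATP5G2 and ATP5G3 encode the same mature c subunit of the rotor. They differed by 0.10, -0.13 and -0.10 with adjusted p of 0.423, 0.301 and 0.481, and ATP5G2 passed in the low libraries (-0.19, adjusted p 0.00201), with the library set as a term and with the GC trend removed. ATP5B, the catalytic beta subunit and the nuclear member with the most counts, had 27254 to 34179 in EXT1-/- and 28447 to 35696 in WT libraries (-0.10, adjusted p 0.493).

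Base composition moved with these differences. The 6 nuclear members that were higher had a transcript GC content of 47.8 to 66.1% (median 58.7%) and the 9 that were lower of 42.2 to 54.4% (median 45.1%), against a median of 48.9% over the 101. Across the 101 members the log2 fold change and GC content had a Spearman rho of 0.53 over 8 libraries and 0.36 in the low libraries. This is a description of points that share their libraries. Over 12982 genes with a mean of at least 100 counts rho was 0.26 and 0.11, in the same order. Removing the GC trend of each library left a rho of 0.28 across the members and -0.01 over those genes. The difference of high from low libraries had a rho with GC content of 0.46 across the members and 0.525 over those genes. With the GC trend of each library removed, 6 members were higher and 11 lower, against 17.0 and 19.7% of all genes. NDUFS6 then differed by 0.48, NDUFS7 by 0.43, NDUFA11 by 0.33 and NDUFS8 by 0.29, all past the threshold, while ATP5C1 (-0.16) and COX7A2L (-0.10) were no longer past it. The library sets differed within the nuclear members as well. NDUFB6 was lower by 1.07 on the log2 scale and NDUFA3 higher by 0.90 in the high libraries than in the low ones, members named after their values were seen. The readthrough gene NDUFC2-KCTD14 had 415, 81, 4 and 429 counts in EXT1-/- and 428, 117, 76 and 33 in WT libraries.

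Of the 13 nuclear members described here that the rule for named genes picked and that were past the threshold, 4 were so in all 18 alternatives run on them: NDUFS6, which was higher, and NDUFB4, UQCRC2 and COX18, which were lower. Each of those 4 also had groups that did not overlap, which is no separate evidence, since the calls came from the same values. In the authors' deposited table NDUFS6, NDUFB4 and COX18 had an FDR under 0.05, and UQCRC2 did not (0.146).

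Genes that build the complexes but have other symbols gave a like picture. Of 44 assembly factors in the table (of 48 listed), 3 were higher and 5 lower (18.2%, against 32.0% of all genes), with a median of -0.08. TTC19, a factor of complex III, had 3826, 3978, 4030 and 3851 counts in EXT1-/- and 4314, 4927, 4935 and 4867 in WT libraries (log2 fold change -0.28 ± 0.058, adjusted p 0.00645, limma). COA1 and COA7, factors of complex IV, differed by -0.20 and -0.25 (adjusted p 0.0126 and 0.0131), and SDHAF3, a factor of complex II, by -0.30 (adjusted p 0.0178), a call lost without WT replicate 4 and with the GC trend removed. The count of 8 was 15 without WT replicate 1, 5 without EXT1-/- replicate 1 or WT replicate 2, 4 without EXT1-/- replicate 4 and 3 without WT replicate 4, and 19 in the low libraries (43.2%, against 45.4% of all genes). Of the 7 genes in the table (of 13 listed) for subunits and carriers with other symbols, 0 were called with limma and 0 had an unadjusted p under 0.05; 1 passed with the GC trend removed, with the set term, in the low libraries and without EXT1-/- replicate 4.

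Of 19 genes in the table (of 24 listed) for mitochondrial transcription and DNA maintenance, 3 were higher and 2 lower (26.3%, against 32.0% of all genes). MTERF1, which binds just beyond the rRNA genes of the mitochondrial genome, had 1035, 1050, 1045 and 975 counts in EXT1-/- libraries, against 732, 821, 775 and 844 in WT libraries (log2 fold change 0.37 ± 0.063, adjusted p 0.00219, limma; 0.37 in the low libraries). Its groups did not overlap. POLRMT, the mitochondrial RNA polymerase, had 1988, 1976, 1822 and 2936 counts in EXT1-/- and 1491, 1518, 1636 and 1231 in WT libraries (0.55 ± 0.15, adjusted p 0.0238; 0.39 in the low libraries and 0.27 with the GC trend removed, adjusted p 0.0171), a call lost without WT replicate 2 or 4. TFB1M, which methylates the small rRNA, had 488, 531, 541 and 468 counts in EXT1-/- and 550, 705, 661 and 690 in WT libraries (-0.36 ± 0.093, adjusted p 0.0185), a call lost without EXT1-/- replicate 1 or WT replicate 2, 3 or 4. TK2, a mitochondrial thymidine kinase, differed by -0.45 (adjusted p 0.0269), a call lost without EXT1-/- replicate 1, 3 or 4 or WT replicate 2, 3 or 4. TFAM, the packaging and transcription factor of mitochondrial DNA, had 4506 to 6610 counts in EXT1-/- and 4461 to 7061 in WT libraries and did not pass (-0.14, adjusted p 0.607). The count of 5 was 2 without EXT1-/- replicate 1 or WT replicate 3, 3 without EXT1-/- replicate 3 or 4, and 1 without WT replicate 2 or 4.

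Of 24 genes in the table (of 26 listed) for mitochondrial RNA processing and stability, 1 was higher and 3 lower (16.7%, against 32.0% of all genes). PTCD2, known in mouse for the processing of the cytochrome b transcript, had 723, 776, 748 and 657 counts in EXT1-/- and 900, 930, 888 and 862 in WT libraries (log2 fold change -0.30 ± 0.066, adjusted p 0.00803, limma; -0.23 in the low libraries), with no overlap. KIAA0391, the nuclease subunit of mitochondrial RNase P, differed by -0.20 (adjusted p 0.0106), and REXO2, an oligoribonuclease, by -0.22 (adjusted p 0.0213), a call lost without EXT1-/- replicate 2 or 3 or WT replicate 3 or 4 and with the GC trend removed. PTCD1 was higher by 0.26 (adjusted p 0.0185), a call lost without EXT1-/- replicate 1 or WT replicate 2 or 4 and with the GC trend removed (0.14, adjusted p 0.299). It shares exons with the readthrough member ATP5J2-PTCD1, so its count is uncertain. LRPPRC, which stabilises mitochondrial mRNAs, did not pass (-0.20, adjusted p 0.194), except in the low libraries (-0.11, adjusted p 0.0188) and with the set term (-0.12, adjusted p 0.00319). In the low libraries 5 of the 24 were higher and 4 lower (37.5%, against 45.4% of all genes).

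The nuclear regulators held the largest fold change among the members and the lists tested. Of 16 genes, all in the table, 5 were higher and 0 lower (31.2%, against 32.0% of all genes), and 0 of the 11 others were past the threshold. PPARGC1A, the coactivator PGC-1alpha that drives the making of mitochondria, had 110, 117, 120 and 115 counts in EXT1-/- libraries, against 27, 31, 29 and 32 in WT libraries. The groups lay far apart, within each library set too, with means of 115.5 ± 4.20 and 29.8 ± 2.22 (SD, n = 4 each; EXT1-/- before WT), a log2 fold change of 1.92 ± 0.12 (adjusted p 8e-06, limma) and 1.92 in the low libraries. Its level was low in both groups, at 10.6 counts per kilobase of exon in EXT1-/- cells. PPARA, a nuclear receptor of fatty acid oxidation genes, had 363, 365, 357 and 354 counts in EXT1-/- and 289, 262, 253 and 245 in WT libraries (0.46 ± 0.072, adjusted p 0.00147), also without overlap.

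PPARGC1B, the paralog PGC-1beta, had 508, 514, 494 and 481 counts in EXT1-/- and 476, 410, 325 and 357 in WT libraries (log2 fold change 0.36 ± 0.11, adjusted p 0.0384, limma), and lost its call when any library other than WT replicate 1 was left out and with the GC trend removed. YY1, a factor of respiratory gene promoters, differed by 0.19 ± 0.055 (adjusted p 0.0263), a call lost without EXT1-/- replicate 2 or 4 or WT replicate 2, 3 or 4. The count of 5 regulators was 3 without EXT1-/- replicate 1 or WT replicate 4 and 2 without EXT1-/- replicate 2 or WT replicate 2 or 3, and 7 were higher and 1 lower in the low libraries, 8 of 16 against 45.4% of all genes. NRF1 itself had 1106, 1154, 1185 and 1209 counts in EXT1-/- and 1077, 1161, 1034 and 1051 in WT libraries and did not pass (0.11, adjusted p 0.203). GABPA completes the 5 regulators that were higher and is named here after its values were seen. It had 2887, 3271, 3130 and 2755 counts in EXT1-/- and 2259, 2619, 2511 and 2749 in WT libraries. Its log2 fold change was 0.25 ± 0.080 (adjusted p 0.0418, limma) and 0.29 in the low libraries (adjusted p 0.00254). Its fits without single libraries are not given here.

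**Figure D5:**
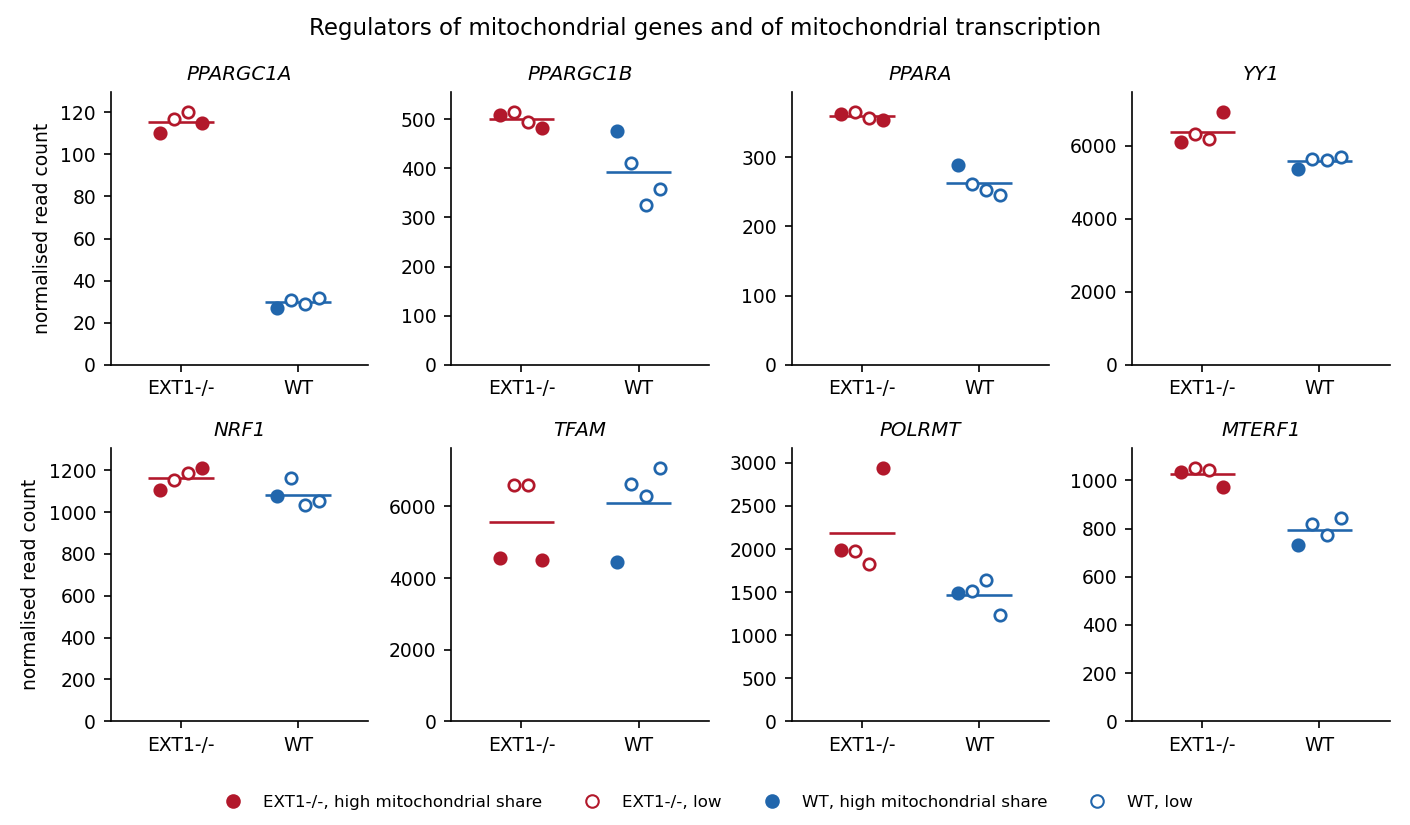
Normalised read counts of 8 regulators of mitochondrial genes and of mitochondrial transcription in each library (points) with the group mean (line), EXT1-/- left and WT right; filled points are libraries of high mitochondrial share. PPARGC1A had 110 to 120 counts in EXT1-/- and 27 to 32 in WT libraries, while NRF1 and TFAM overlap between the groups.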

How the data were processed

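The study sequenced total RNA with a stranded total RNA kit, per the labels' protocols, and the titles of the samples give genotype and replicate number. STAR, RSEM, edgeR and GRCh38.p10 are named, without tool versions, per the submitters' processing notes. The deposited table holds, per gene, the authors' log2 fold change, log2 CPM, likelihood ratio score, p-value and FDR, and 8 columns of whole numbers. Those columns are a normalised signal deposited by the authors, not raw counts: their effective sizes, computed here by trimmed means, were 38891466 to 38902443 in every library. They are called normalised read counts. Library totals were 37737058 to 40017763, so 1 CPM is 38.9 of them, and genes outside the table were not analysed here. No column belonged to other samples. An rRNA removal step is not given in the sources used here.

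A quasi-likelihood test on counts had been planned; since the values are normalised, limma 3.58.1 with an intensity trend was used on log2(value + 1), with a model of genotype alone; p-values were adjusted by Benjamini-Hochberg over 15811 genes, at 0.05. The filter, a group mean of 1 or more, removed 0 genes. The pseudocount understates changes of low genes. Library sets were read from the mitochondrial share after the values were seen; the set term and GC removal (loess span 0.3) were added then. Members, lists and the rule for named genes were chosen with earlier results of these data known. The rule named all mitochondrial mRNAs and rRNAs, SDH genes and isoform families, up to 4 members per complex and direction by adjusted p, up to 4 genes per other list, and CYC1, CYCS, TFAM, PPARGC1A, POLRMT and LRPPRC. NDUFA4 and NDUFA4L2 were put with complex IV. Of 15811 genes 15777 were matched to GENCODE 29 for coordinates, exon length and GC. Promoters are from RefSeq, and 82 of 101 nuclear members matched. Taken as counts, which normalised values only approximate, every 2 libraries of a group had a chi-square per gene of 4.46 or more, so none was treated as a repeat of another. The fit was tested on simulated data. The work was done in R 4.3.3 and in Python 3.11.15 with matplotlib 3.10.9, scipy 1.17.1, pandas 2.3.3 and numpy 2.4.6. Alternatives were leaving out each library, a replicate block, and other scalings, filters, pseudocounts and variance models. Results of 1 named member are not reported here.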

Additional observations from a re-analysis of the deposited data

Results flagged for a closer look

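Dixon's gap test was run on 146 groups of 4 libraries, taken from the named genes and the shares, and 28 had 1 library far from the other 3, where chance gives about 1 in 20. WT replicate 1 was that library for 16 members, 4 other genes and 5 shares. It was high, with the gap to the next library as a part of the whole range in brackets, for MT-CYB (0.91), MT-ND1 (0.943), MT-RNR2 (0.893), MT-ND2 (0.948), MT-ATP8 (0.984), MT-ATP6 (0.958), MT-CO2 (0.982), MT-ND6 (0.963), MT-ND3 (0.961), MT-ND5 (0.944), MT-ND4 (0.974), MT-CO3 (0.975), MT-CO1 (0.965) and MT-ND4L (0.923). It was the single WT library of high mitochondrial share, so these flags and those of the shares are not independent of each other. Its share of all members was 11.64% (gap 0.985), that of the mitochondrially encoded members 10.67% (0.976), that of mitochondrial mRNA 9.39% (0.963) and that of mitochondrial rRNA 1.28% (0.877), and it held 10.98 mitochondrially encoded counts per nuclear count (0.954).

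In the same library ATP5G2 was high at 12788 counts (gap 0.958), and KIAA0391 (0.886) and EXT1 (0.859) were high too, while SDHD was low at 3047 counts (0.965), as were TTC19 (0.89) and LRPPRC (0.868). In other libraries NDUFS6 was high in WT replicate 3 at 1701 counts (0.872) and NDUFB4 in WT replicate 4 at 5716 (0.849). The NDUFS6 value lay towards the EXT1-/- values and the NDUFB4 value away from them. POLRMT was high in EXT1-/- replicate 4 at 2936 counts (0.851).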

How the results depend on the processing

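The number of nuclear members past the threshold, 15, became 38 with the library set as a term and 35 without the 3 libraries of high mitochondrial share, and over leaving out each library it ran from 5 to 24. Of all genes, 5063 became 8195 with the set term, and 3721 to 6041 over leaving out a library. The counts of 24 and 6041 came without WT replicate 1, which leaves no WT library of high share. With the replicate number as a block the nuclear count was 12, of which 8 were among the 15, and the mitochondrially encoded count stayed at 0. The block left no other count outside 1.5 times except that for mitochondrial transcription and DNA maintenance, at 3 against 5. The numbers do not pair the libraries: deviations of same-numbered libraries correlated at 0.78, 0.44, 0.26 and -0.65, and EXT1-/- replicates 2 and 3 correlated best with WT replicate 4 and EXT1-/- replicate 4 with WT replicate 1. The mitochondrially encoded count, 0, ran from 0 to 2 over leaving out a library and was 0 under each other alternative run on it. The count of 2 came without WT replicate 1, where genotype is mixed with library set. For these genes p-values with the set term or without the high libraries are not given, because their own level set the libraries apart. The set term and GC removal were chosen after seeing the data. In each case the cause was not tested.

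For the other lists, the set term gave 21 assembly factors against 8, 9 genes of transcription and DNA maintenance against 5, 11 of RNA processing against 4, and 1 subunit or carrier against 0. Without the 3 high libraries the counts were 19 assembly factors, 9 of RNA processing, 8 regulators against 5, and 1 subunit or carrier; removing the GC trend also gave 1 subunit or carrier. Leaving out a library gave 3 to 15 assembly factors, 1 to 6 genes of transcription and DNA maintenance, 2 to 6 regulators and 0 to 1 subunits or carriers. The median log2 fold change of the nuclear members, -0.04, ran from -0.09 to -0.02 over leaving out a library and was -0.08 without the high libraries; that of the mitochondrially encoded members, 0.21, ran from 0.03 to 0.53 and was 0.03. Of 1121 tested values of 64 named genes under up to 18 alternatives, 996 stayed on their side of the threshold, 99 no longer passed it, 26 newly passed it, and no called value changed sign.

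Counting intervals cannot be given for normalised values, and with 4 libraries a group changes of this size were detectable only where libraries varied little.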
